A study of Mus musculus with 9 samples.

Results

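Cells labelled cfos were compared with cells labelled mCherry in the paraventricular hypothalamus (PVH) of the mouse, over all 54838 genes of the deposited count table. The comparison takes 6 of the 9 columns of that table, 3 named cfos and 3 named mCherry, and the 3 columns named overlap enter only the shared estimate of spread. Cells were isolated by laser-capture microdissection, which cuts chosen cells out of a tissue section, and their polyadenylated RNA was read from the 3′ end with Smart-3SEQ. The series concerns visceral and somatic pain, and its design text speaks of cells marked by CRD, by VFF or by both, without saying which of these the names cfos and mCherry stand for. The groups therefore keep the names cfos, after the product of the activity gene Fos, and mCherry, after a red fluorescent protein. All 6 libraries are described as brain and as neuron. The sources used here do not give strain, genotype, age, treatment or time of collection, the promoter or virus behind the mCherry label, or the number of cells and animals in a library. They are called biological replicates with no animal named, and p-values therefore rest on library-to-library spread, which may be technical.

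The PVH joins hormone release to autonomic and behavioural output. Its magnocellular neurons make vasopressin and oxytocin, its parvocellular neurons make releasing hormones such as Crh and Trh, and many of its neurons are glutamatergic. Peptides of this kind are cut from precursors and stored in dense-core granules, together with granins and processing enzymes. Immediate early genes such as Fos are switched on within minutes of strong neuronal activity and serve as marks of recently active cells.

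The 2 groups are not made of 6 independent libraries. The count in cfos 2 exceeded that in cfos 3 in 0 of 54838 genes, and a chi-square of their counts came to 0.844 per gene, against at least 9.24 in every other pair of columns. Their mean was therefore counted as 1 replicate, which leaves 2 cfos replicates, and both columns are printed. In 0 genes did mCherry 2 exceed the total of mCherry 1 and 3, where the same check with mCherry 1 or mCherry 3 as the single column found 7006 and 5226 genes. It was kept, and counts are repeated without it. Totals were 877257 to 978877 counts in mCherry, 700556 in cfos 1, and 1871820 and 3414593 in cfos 2 and cfos 3. Levels are in CPM, counts scaled to a common library size after TMM normalization. An observed 0 allows for as many as 3 counts, equal to 3.07 to 3.54 CPM in mCherry, 4.21 in cfos 1, 1.81 in cfos 2 and 0.991 in cfos 3. Predicted genes (symbols starting with Gm or ending in Rik) took 16.9% of the counts of cfos 1, 24.6% to 25.5% in cfos 2 and 3, and 26.6% to 27.9% in mCherry, and their part in the results below was not tested.

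No gene passed the test. Of 16410 genes tested with edgeR, 0 had an adjusted p under 0.05 (0.0% of genes), and the smallest adjusted p was 0.0626. At an unadjusted p under 0.05, 1229 genes were higher in cfos (7.49%) and 1670 lower (10.2%), and without mCherry 2 these were 421 and 1001 of 15274 genes tested. In 3034 genes (18.5%) both cfos replicates lay above all 3 mCherry libraries, and in 2326 (14.2%) both lay below. Without mCherry 2 these counts of separated genes were 3176 and 2402. The edgeR test then again called 0 genes, with a smallest adjusted p of 0.406. With the same libraries, DESeq2 called 1529 genes and limma-voom with sample weights 2163, and without mCherry 2 they called 551 and 0. The direction of a difference and the separation of the groups are therefore given below as descriptions of these libraries.

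The cfos replicates lay on opposite sides of mCherry in part of the genes. In 726 genes (4.42%) cfos 1 lay above all mCherry libraries while the mean of cfos 2 and 3 lay below all of them, and in 1062 genes (6.47%) the reverse held. The median log2 fold change over all genes tested was 0.04. It was 0.24 for the 10483 protein-coding genes that are not predicted genes, of which 22.3% lay apart on the higher side and 12.2% on the lower, and −0.35 for the 5187 predicted genes. Lists of known brain genes were mostly above the median of all genes, which held for 25 of the 29 lists with at least 5 tested members.

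**Figure D1:**
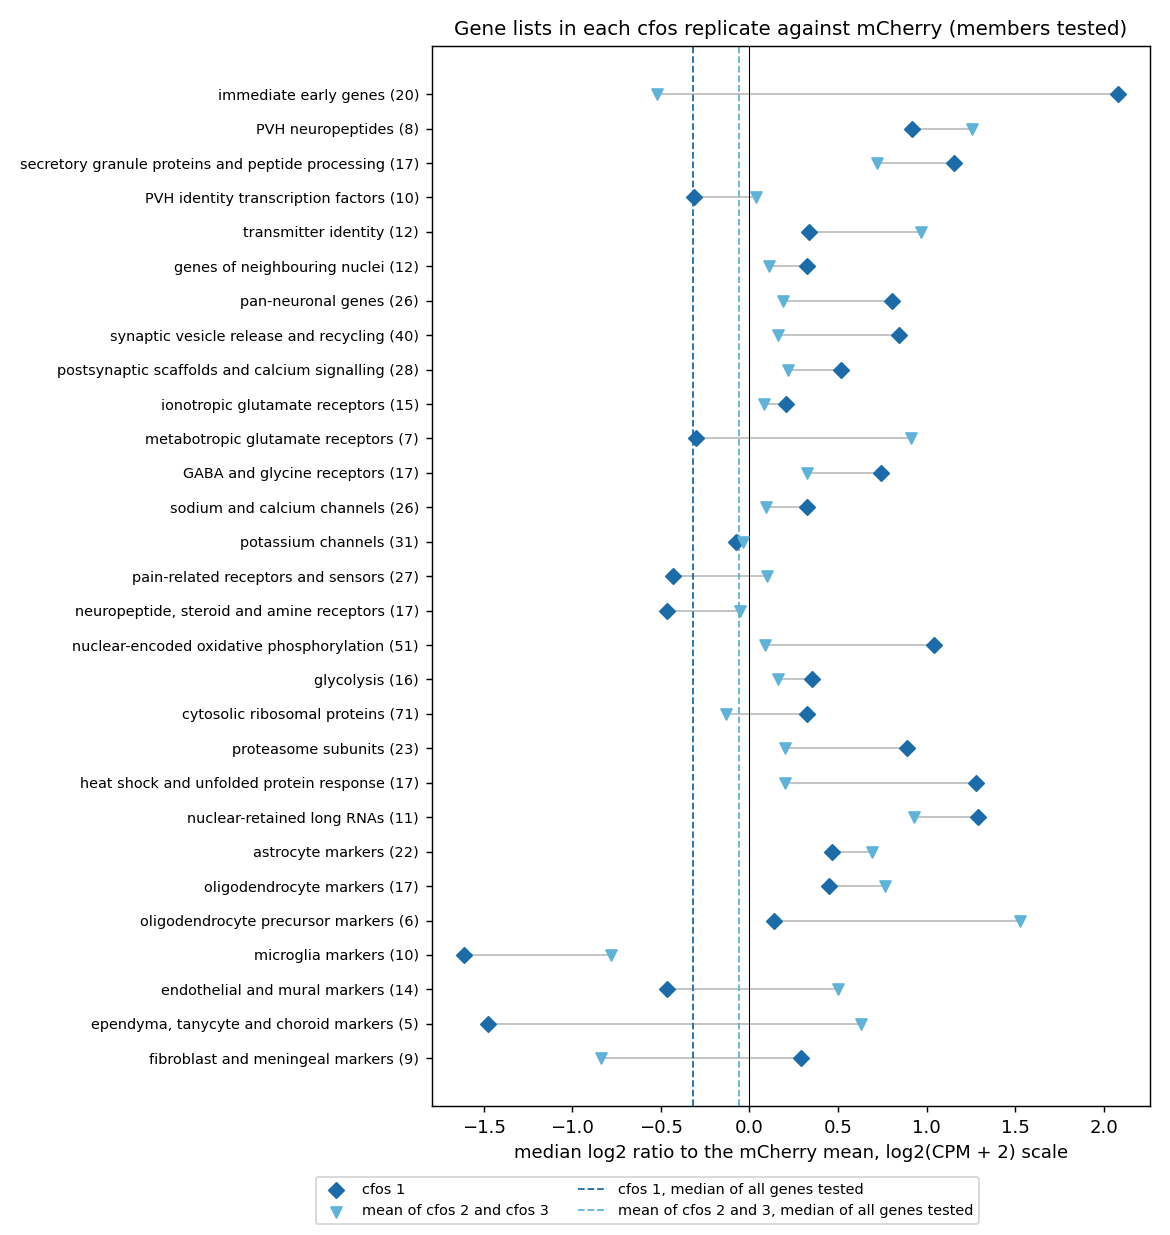
Median log2 ratio of each gene list to the mean of the mCherry libraries, on the log2(CPM + 2) scale, for cfos 1 (diamonds) and for the mean of cfos 2 and 3 (triangles), with the number of members tested in brackets and dashed lines at the medians of all genes tested (−0.32 and −0.06). Immediate early genes lie at 2.08 in cfos 1 and −0.52 in the pair, whereas granule and processing genes lie at 1.15 and 0.72.

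Fos itself, on chromosome 12 (85473890 to 85477273, plus strand, mm10), encodes the transcription factor after which the group is named. Its level was 30.9, 21.3 and 11.3 CPM in the mCherry libraries, 286 CPM in cfos 1, and 23.5 and 25.8 CPM in cfos 2 and cfos 3. Only cfos 1 stood above mCherry, and the nested pair lay within the mCherry range. The fitted log2 fold change was 2.86 with an SE of 1.00 (adjusted p = 0.252 with edgeR).

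Part of the other immediate early genes also divided the cfos replicates. Of 30 listed genes 20 were tested and 0 passed, with a median log2 fold change of 1.33. In cfos 1, 15 of the 20 lay above the mean of mCherry, with a median log2 ratio of 2.08, and in the mean of cfos 2 and 3 only 7 did, with a median of −0.52. Without cfos 1 the median of the fitted changes was −0.66, and without cfos 2 and 3 it was 1.88. Egr1, a zinc-finger transcription factor, read 168 (mCherry 1), 148 (mCherry 2) and 71.6 CPM (mCherry 3), 579 CPM in cfos 1, and 28.9 and 42.6 CPM in cfos 2 and 3. The highest value was thus in cfos 1 and both of the lowest were in the nested pair. Junb, an AP-1 partner of Fos, had 21.3, 20.1 and 7.16 CPM in mCherry, 78.5 in cfos 1, and 4.21 and 6.27 in the pair. With Jun, Arc and Btg2, 5 of the 20 genes lay above all mCherry libraries in cfos 1 and below all of them in the mean of cfos 2 and 3, against 4.42% of all genes. For Jun this holds for the mean and for cfos 2, while cfos 3, at 25.4 CPM, was just above mCherry 2, at 24.8 CPM. Arc had 1, 3 and 2 counts in mCherry and 0 in cfos 2 and 3. Its place below mCherry in the pair is therefore within the floor of 3 counts. Egr1, Junb, Jun, Arc and Btg2 were chosen for mention after their values were seen.

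Among activity genes, 5 lay above mCherry in both cfos replicates, and 1 lay below in both. Pcsk1, which encodes a prohormone convertase and is counted both as an activity gene and as a granule gene, was at 0, 3.54 and 3.07 CPM in mCherry, 49.1 in cfos 1 and 27.1 and 29.7 in cfos 2 and 3. Its groups did not overlap, and its log2 fold change was 4.07 with an SE of 1.37 (adjusted p = 0.250). The clock gene Per1, the kinase gene Sik1, and the transcription factor genes Fosl2 and Klf6 were also higher in both, and were named after their values were seen. Sik1, for example, was at 5.33, 4.72 and 1.02 CPM in mCherry, 49.1 in cfos 1, and 9.63 and 9.91 in the pair. Fosl2 was at 1.07, 1.18 and 2.05 CPM in mCherry, 26.65 in cfos 1, and 2.41 and 2.64 in the pair. Its pair values were under the 3.07 CPM that 3 counts equal in mCherry 3. Bdnf, an activity-regulated neurotrophin gene, ran the other way, at 216 (mCherry 1), 172 (mCherry 2) and 140 CPM (mCherry 3) against 35.1 in cfos 1 and 93.9 and 92.5 in cfos 2 and 3. Its log2 fold change was −1.45 with an SE of 0.63 (adjusted p = 0.275). Separation of the groups in 5 of 20 genes on the higher side and 1 on the lower compares with 18.5% and 14.2% of all genes. Of protein-coding genes 22.3% and 12.2% lay apart, and the count on the higher side was near that share. Without mCherry 2 the counts of the list were 6 and 1.

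Genes of the secretory granule were for the greater part above mCherry in both cfos replicates, in 11 of 17 tested members, with a median log2 ratio of 1.15 in cfos 1 and 0.72 in the mean of cfos 2 and 3. Of 18 listed genes 17 were tested, 16 had a fold change above 0 and 0 passed the test. The median log2 fold change was 0.86, and it stayed between 0.70 and 1.01 with DESeq2 size factors and with any 1 mCherry library or either cfos replicate left out. In 0 of the 17 both cfos replicates lay below all mCherry libraries. These counts stand beside 18.5% above and 14.2% below for all genes, and 22.3% and 12.2% for protein-coding genes. Secisbp2l, named after its values were seen, was the member with a fold change below 0, at −1.40 on the log2 scale. The summed level of the list was 1207 to 1422 CPM in mCherry, 3395 in cfos 1, and 1840 and 2147 in cfos 2 and 3.

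Scg2 (chromosome 1, 79434669 to 79440120, minus strand), the precursor of secretoneurin, was at 162, 182 and 137 CPM in mCherry, 1200.0 in cfos 1 and 368 and 441 in cfos 2 and 3. All cfos columns stood above all mCherry libraries, and the log2 fold change was 2.33 with an SE of 0.51 (adjusted p = 0.174). Vgf, a neurotrophin-inducible granule protein gene, was at 18.1, 15.4 and 11.3 CPM in mCherry, 163 in cfos 1, and 38.5 and 53.8 in the pair. It too was apart, with the larger step in cfos 1, at a log2 fold change of 2.81 with an SE of 0.89 (adjusted p = 0.238). Chgb, the gene of the granin chromogranin B, was at 29.9, 40.2 and 37.9 CPM in mCherry, 154 in cfos 1 and 108 and 106 in the pair, and was named after its values were seen, as was Pam. Pam, the enzyme that amidates peptides such as vasopressin and oxytocin, had 51.2, 49.6 and 39.9 CPM in mCherry against 181, 71.0 and 102 in cfos 1 to 3. Cpe, a carboxypeptidase of the same pathway, also named after its values were seen, had the smallest fold change of the 11 genes that lay apart, at 417, 461 and 485 CPM against 543, 501 and 586.

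A cAMP response element (CRE), the palindrome TGACGTCA, binds CREB, an activity-regulated factor, and was searched on both strands in the 300 bases around each RefSeq gene start (250 before and 50 after, GRCm38.p6). It was present in 588 of 32851 promoters (1.79%). That share counts every promoter, whether or not its gene was tested. The list counts below are of tested genes with the element in any of their promoters. Of the 17 granule genes tested, 13 had a promoter in the table and 3 of these held the element, namely Scg2, Chgb and Pcsk1. Among the tested peptide genes 1 of 7 promoters held it, that of Sst. Of the immediate early genes, 2 of 16 did, Btg2 and Pcsk1. The shorter element TGACG, which is part of the full element, was in 20.8% of all promoters. It was in 7 of 13 granule genes, 5 of 7 peptide genes and 12 of 16 of the immediate early genes, Fos included. The 4 sequences below are shown because these genes lay above mCherry in both cfos replicates. Each is the 100 bases before the RefSeq gene start, 5′ to 3′ on the gene's strand, with the element in capitals, from chr1:79440027-79440126 (Scg2, minus strand), chr2:132781542-132781641 (Chgb, plus), chr13:75089757-75089856 (Pcsk1, plus) and chr16:23890845-23890944 (Sst, minus).
Scg2: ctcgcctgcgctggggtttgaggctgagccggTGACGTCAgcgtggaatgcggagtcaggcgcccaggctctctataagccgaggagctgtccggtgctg
Chgb: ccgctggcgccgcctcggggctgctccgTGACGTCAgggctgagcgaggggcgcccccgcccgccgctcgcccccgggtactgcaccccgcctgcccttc
Pcsk1: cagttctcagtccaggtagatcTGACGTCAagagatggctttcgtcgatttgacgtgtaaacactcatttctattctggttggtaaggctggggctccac
Sst: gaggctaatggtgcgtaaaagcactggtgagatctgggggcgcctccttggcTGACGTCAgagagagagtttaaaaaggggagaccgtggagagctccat
In them the element begins 68, 72, 78 and 48 bases before the RefSeq start of Scg2, Chgb, Pcsk1 and Sst. The GENCODE M21 genes, whose coordinates are given elsewhere, start 94, 364, 31 and 114 bases further upstream, so that against GENCODE the element of Pcsk1 lies before the gene and those of Scg2, Chgb and Sst lie inside it. A match of letters is not a measurement of binding, and Vgf was not in the promoter table.

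The hormone genes of the PVH were sparse apart from Oxt. Of 19 peptide genes 8 were tested, 7 had a fold change above 0 and 0 passed, with a median of 1.37. Their summed level was 213 to 458 CPM in mCherry, 668 in cfos 1, and 708 and 808 in cfos 2 and 3, so the groups did not overlap. In 4 of the 8 tested genes both cfos replicates lay above all mCherry libraries, namely Avp, Oxt, Sst and Trh, and in 0 both lay below, beside 18.5% and 14.2% of all genes. The same count was found without mCherry 2.

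Oxt, the oxytocin gene on chromosome 2 (130576173 to 130577054, plus strand), was at 111, 305 and 398 CPM in mCherry and at 477, 451 and 539 CPM in cfos 1 to 3. The groups were apart by less than the spread within mCherry, and the log2 fold change was 0.86 with an SE of 0.96 (adjusted p = 0.688). Avp, the vasopressin gene that lies beside it on the opposite strand (130580620 to 130582554), was at 2.13, 1.18 and 0 CPM in mCherry, 39.3 in cfos 1 and 13.8 and 18.5 in cfos 2 and 3. That is 3 counts over the mCherry libraries against 84 in cfos 1 and cfos 3, a ratio of 20.7 after scaling by library size, with a 95% counting interval of 6.84 to 102 (exact binomial). The ratio was 41.0 without mCherry 1, 13.4 without mCherry 3 and 36.1 without cfos 2 and 3. The adjusted p of Avp was 0.247. Intervals and floors cover counting error only, since the sources used here do not say how molecular identifiers were used.

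Sst, the somatostatin gene, had 0, 2.36 and 3.07 CPM in mCherry and 28.1, 22.3 and 24.8 in cfos 1 to 3. The cfos columns were alike and all above mCherry, at a log2 fold change of 3.75 with an SE of 1.86 (adjusted p = 0.323). Trh, for thyrotropin-releasing hormone, was at 10.7, 5.90 and 5.12 CPM in mCherry, 16.8 in cfos 1, and 32.5 and 35.0 in the pair. Crh, for corticotropin-releasing hormone, was at 7.47, 1.18 and 0 CPM in mCherry, 28.1 in cfos 1 and 3.01 and 2.31 in cfos 2 and 3. Only cfos 1 stood above mCherry in Crh, on 20 counts. Its log2 fold change was 2.32 with an SE of 1.56 (adjusted p = 0.472), and it was −0.15 without cfos 1. The peptide gene Cck, named after its values were seen, was at 22.4, 28.3 and 17.4 CPM in mCherry. It was at 33.7 CPM in cfos 1 and at 12.6 and 14.2 in the pair, on opposite sides of mCherry.

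**Figure D2:**
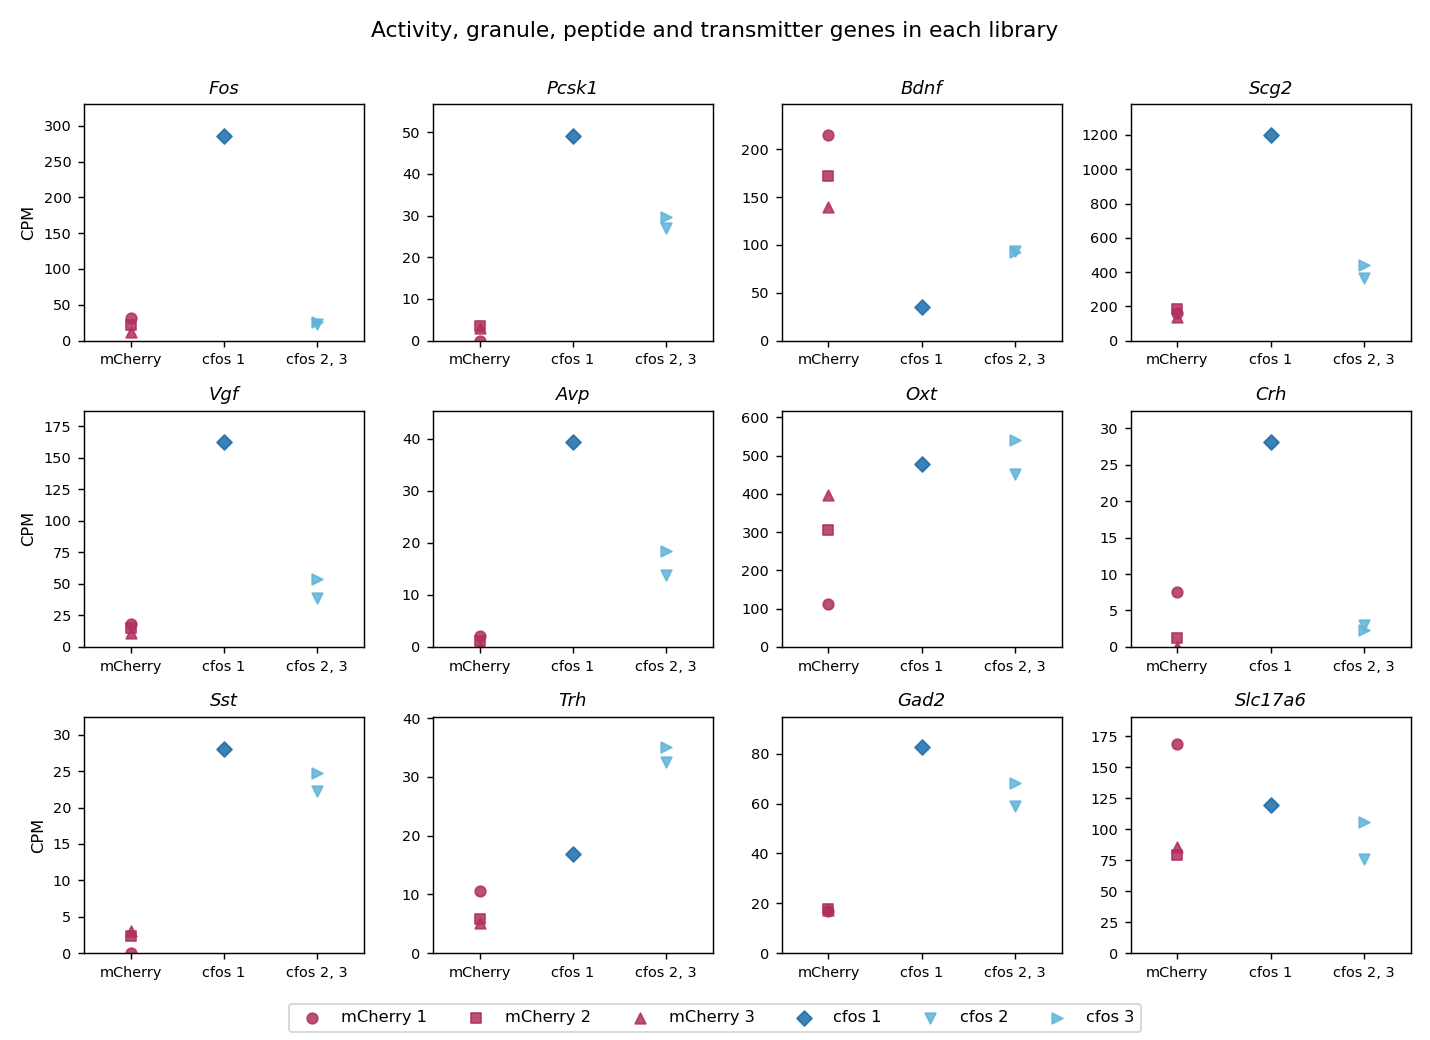
Level in CPM of 12 activity, granule, peptide and transmitter genes in each library, with the mCherry libraries in red, cfos 1 as a dark diamond and the nested columns cfos 2 and 3 as light triangles, each axis starting at 0. Fos and Crh are high in cfos 1 alone, while Scg2, Pcsk1, Avp, Sst and Gad2 are above mCherry in all 3 cfos columns.

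The transcription factors that specify the PVH did not separate the groups as a list. Of 16 listed symbols 15 were in the table and 10 were tested, 5 had a fold change above 0 and 5 below, and the median was 0.00. Sim1, which is needed for PVH neurons to form, was at 17.1, 20.1 and 44.0 CPM in mCherry, 19.6 in cfos 1 and 85.4 and 76.6 in cfos 2 and 3. The defining PVH factor Otp was close to 0, at 0 to 1.18 CPM in mCherry and 4.81 to 11.2 in cfos. Pou3f2, a POU factor of neuroendocrine neurons, was at 35.2, 75.6 and 104 CPM in mCherry and 126, 205 and 216 in cfos 1 to 3, with the groups just apart (log2 fold change 1.24, SE 0.57, adjusted p = 0.295). Sim1, Otp and Pou3f2 were chosen after their values were seen. Among genes of neighbouring nuclei, 7 of 12 tested were above 0 and 5 below, with 4 apart on the higher side and 2 on the lower (22.3% and 12.2% of protein-coding genes). Agrp, Pomc, Hcrt, Kiss1 and Nr5a1 were at 0 in all 6 columns. Other members were expressed, and the list summed to 663 to 910 CPM in mCherry and 1015, 680 and 749 in cfos 1 to 3. The PVH factors summed to 1001 to 1158 CPM in mCherry and 1042, 1229 and 1276 in cfos 1 to 3.

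Among transmitter genes, both cfos replicates were above mCherry for the GABA marker Gad2, while the GABA marker Gad1 and the glutamate marker Slc17a6 overlapped. Gad2, a GABA-synthesizing enzyme, was at 17.1, 17.7 and 17.4 CPM in mCherry, 82.7 in cfos 1 and 59.0 and 68.4 in cfos 2 and 3. The spread within each group was small against the gap, and the log2 fold change was 2.08 with an SE of 0.92 (adjusted p = 0.281). Gad1, the other GABA-synthesizing enzyme, named after its values were seen, was at 147, 7.09 and 3.07 CPM in mCherry and 39.3, 21.7 and 30.4 in cfos 1 to 3, and its log2 fold change was −0.66. Slc17a6, the vesicular glutamate transporter VGLUT2, had 168 (mCherry 1), 79.1 (mCherry 2) and 85.9 CPM (mCherry 3) against 119, 76.4 and 106 in cfos 1 to 3. These values overlapped, at a log2 fold change of −0.05 with an SE of 0.86 (adjusted p = 0.997), and the sign turned under several settings, such as without mCherry 1. Nos1, for the nitric oxide synthase of magnocellular neurons, was at 158, 116 and 78.8 CPM in mCherry and 238, 209 and 203 in cfos. Slc18a2, the vesicular monoamine transporter, was at 0 in all mCherry libraries and at 2.81, 25.9 and 29.1 CPM in cfos 1 to 3, which is at least 22.2-fold higher against a floor of 3 counts over the mCherry group, and its adjusted p was 0.263. That bound rests on cfos 2 and 3, without which cfos 1 had 2 counts, under the floor. In the list as a whole, 5 of 12 tested genes lay apart on the higher side and 0 on the lower (18.5% and 14.2% of all genes), and the median of 0.72 became −0.23 without cfos 2 and 3.

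Genes of neuronal cell structure were present in every library. All 26 pan-neuronal genes were tested, 22 had a fold change above 0, 0 passed, and the median was 0.67. Their summed level was 5658 to 6618 CPM in mCherry, 12580 in cfos 1, and 6816 and 7533 in cfos 2 and 3. The step was thus mainly that of cfos 1, where the median log2 ratio to mCherry was 0.80, against 0.19 in the pair. In 13 of the 26 genes both cfos replicates lay above mCherry, and in 0 below, beside 22.3% and 12.2% of protein-coding genes. Map2, a dendritic microtubule protein gene, had 148, 141 and 102 CPM in mCherry, 467 in cfos 1 and 249 and 303 in the pair, for a log2 fold change of 1.52 with an SE of 0.48 (adjusted p = 0.236). Map1a, which overlaps Ppip5k1 on the opposite strand, was at 534 to 634 CPM in mCherry and at 1438, 579 and 670 in cfos 1 to 3, with cfos 2 inside the mCherry range.

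At the presynapse, Pclo (chromosome 5, 14514918 to 14863459, plus strand) was among the 10 genes named by smallest p on the higher side. It encodes piccolo, a scaffold of the active zone, and was at 212, 230 and 201 CPM in mCherry and 701, 813 and 841 in cfos 1 to 3. The cfos columns were alike in this gene and far from mCherry, with a log2 fold change of 1.84 with an SE of 0.34 (adjusted p = 0.166). Several predicted genes overlap it, some of them on the opposite strand, and without a stated strand setting their reads cannot be told apart. Syn2, a synapsin gene that overlaps Timp4, was at 46.0 to 55.5 CPM in mCherry and 192, 203 and 207 in cfos 1 to 3. Syn3, another synapsin gene, which overlaps Timp3, was at 120, 62.6 and 1.02 CPM in mCherry and 0, 2.41 and 2.97 in cfos, and the mCherry 3 value lay inside the cfos range. Over the vesicle list of 40 tested genes, 30 had a fold change above 0, 12 lay apart on the higher side and 3 on the lower (22.3% and 12.2% of protein-coding genes), and the median was 0.55.

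Among receptors, the AMPA subunit gene Gria4 was at 24.5, 22.4 and 15.4 CPM in mCherry, 107 in cfos 1 and 202 and 189 in cfos 2 and 3. Its groups did not overlap, at a log2 fold change of 2.85 with an SE of 0.76 (adjusted p = 0.222). Gria2 was at 490, 590 and 514 CPM in mCherry and 1018, 554 and 629 in cfos, which overlapped. Of 15 ionotropic glutamate receptor genes tested, 8 were above 0 and 7 below, with 7 apart on the higher side and 2 on the lower. The shares apart, to be read beside this and the next counts, were 22.3% and 12.2% of protein-coding genes. The pain-related receptor list had 16 of 27 tested genes above 0 and 11 below, with 3 apart in each direction. In the postsynaptic scaffold list 22 of 28 tested genes were above 0, with 9 apart on the higher side and 1 on the lower, and in the list of GABA and glycine receptors 13 of 17 were, with 6 and 2 apart. The sodium and calcium channel list had 18 of 26 tested genes above 0, with 4 and 2 apart, and the metabotropic glutamate receptors 4 of 7, with 0 and 1 apart. Of 17 tested neuropeptide, steroid and amine receptor genes, 8 were above 0 and 9 below. The potassium channel list had 15 above 0 and 16 below, with 4 apart in each direction. Oprm1, the mu-opioid receptor gene, named after its values were seen, was at 69.3, 133 and 124 CPM in mCherry, 79.9 in cfos 1 and 246 and 225 in the pair.

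Housekeeping lists followed cfos 1. The 51 tested genes of nuclear-encoded oxidative phosphorylation had a median log2 ratio of 1.04 in cfos 1 and 0.09 in the mean of cfos 2 and 3, with 14 genes apart on the higher side, 3 on the lower and 0 past the test. Cytosolic ribosomal protein genes had medians of 0.32 and −0.13 by the same measure, with 18 of 71 tested genes apart on the higher side and 9 on the lower, and glycolysis genes had medians of 0.35 and 0.16, with 6 and 2 of 16 apart. Of all protein-coding genes, 22.3% and 12.2% were apart on the higher and lower side, close to the shares of the ribosomal list. The members of smallest p included genes in both directions. Sdhc, a subunit of succinate dehydrogenase, was at 4.27, 1.18 and 2.05 CPM in mCherry and 43.5, 13.2 and 14.9 in cfos 1 to 3. Uqcrc2, a core protein of complex III that overlaps Pdzd9, was at 224, 104 and 130 CPM in mCherry and 33.7, 36.1 and 40.0 in cfos, and Ndufab1 of complex I at 18.1 to 27.6 against 1.81 to 4.21. Uqcrc2 and Ndufab1 were thus lower in all 3 cfos columns.

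Proteasome and chaperone genes had for the greater part fold changes above 0, with some members lower. Of 23 tested proteasome genes 12 lay apart on the higher side and 3 on the lower, beside 22.3% and 12.2% of protein-coding genes. Psmd11, of the regulatory lid, was at 29.7 to 43.7 CPM in mCherry and 118, 135 and 144 in cfos 1 to 3, while Psma1, of the core ring, was at 87.0 to 113 CPM in mCherry and 30.9, 22.3 and 23.5 in cfos. Psmd13, which overlaps Sirt3, had 1 count over the mCherry libraries and 39 in cfos 1 and cfos 3, a ratio of 28.8 with a counting interval of 4.87 to 1166. It was 18.6 without mCherry 3 and 46.5 without cfos 2 and 3, and at least 6.34 without mCherry 1. Among 17 tested chaperone genes 14 were above 0 and 2 below, with 8 apart on the higher side and 1 on the lower. The endoplasmic reticulum chaperone gene Hsp90b1 was at 289, 263 and 204 CPM in mCherry and 797, 372 and 438 in cfos. Hspa1a, an inducible heat shock gene with a near-identical neighbour, Hspa1b, with which reads may be shared, was at 85.3, 60.2 and 24.6 CPM in mCherry and 0, 1.20 and 2.64 in cfos 1 to 3. Its log2 fold change was −5.32 with an SE of 1.60 (adjusted p = 0.235).

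Nuclear long RNAs were above mCherry in both cfos replicates for 6 of 11 tested members and below in 0 (18.5% and 14.2% of all genes), with a median log2 fold change of 0.81. Malat1, a nuclear-speckle RNA on chromosome 19 (5795690 to 5802672, minus strand), was at 4977, 4971 and 4060 CPM in mCherry, 21500.0 in cfos 1 and 8149 and 9362 in cfos 2 and 3. The log2 fold change was 1.70 with an SE of 0.33 (adjusted p = 0.174), and all cfos columns were above all mCherry libraries. Snhg11, a neuronal long RNA, was at 546 to 690 CPM in mCherry and 2250.0, 1107 and 1248 in cfos. Meg3, by contrast, was at 9350.0 to 11340.0 CPM in mCherry, 26350.0 in cfos 1 and 9586 and 11190.0 in the pair, so only cfos 1 stood apart.

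Among protein-coding genes that are not predicted genes, those lying apart with the smallest p were, apart from Pclo, not members of any list. The 10 on the higher side had adjusted p of 0.149 to 0.174 and the 10 on the lower side 0.0626 to 0.166, and 0 of them passed. Without mCherry 2 the edgeR adjusted p was 0.406 for Ermap, on the lower side, and 0.529 for each of the others. A stricter filter, at least 20 counts in every library of 1 of the 2 groups, tested 8380 genes and called 85 higher (1.01%) and 125 lower (1.49%), including 8 of the 10 named on the higher side and all 10 on the lower. This filter admits a gene through the group in which it is high, and the calls are read with that limit. The named genes were also picked by smallest p in these same libraries, so their calls here add no support.

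On the higher side, Dapk2, a calcium/calmodulin-regulated kinase gene (chromosome 9, 66158223 to 66272242, plus strand), was at 0 in all mCherry libraries and at 146, 208 and 198 CPM in cfos 1 to 3. Against a floor of 3 counts over the mCherry group it was at least 173-fold higher. Armh3 was also at 0 in mCherry, and at 63.1, 142 and 129 CPM in cfos, at least 107-fold higher. Cyp2j8, one of a family of similar cytochrome P450 genes, was at 0 in mCherry against 167, 73.4 and 67.0 CPM, at least 79.2-fold higher. Rmdn1, a microtubule-associated protein gene, had 2 counts over mCherry and 54.7, 415 and 398 CPM in cfos 1 to 3, with a counting ratio of 459 (interval 127 to 3796). The 3 counts of Setd4, a methyltransferase gene, gave a ratio of 120 (40.9 to 584), and the 2 of Colec12, a scavenger receptor gene, one of 74.2 (20.3 to 617). With any 1 replicate left out, the bounds were 112 to 182 for Dapk2, 58.1 to 119 for Armh3 and 51.2 to 154 for Cyp2j8. The ratios were then 75.5 to 637 for Rmdn1, 77.6 to 238 for Setd4 and 34.9 to 103 for Colec12. The lowest values of Armh3, Rmdn1 and Colec12 were those without cfos 2 and 3, those of Dapk2, Cyp2j8 and Setd4 those without mCherry 3. The highest values were without cfos 1 for Dapk2 and Armh3, without cfos 2 and 3 for Cyp2j8, without mCherry 1 for Setd4, and without mCherry 2 for Rmdn1 and Colec12.

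Gnaz, Lrba and Lpin2 were expressed in both groups. Gnaz, the alpha subunit of Gz, which inhibits adenylyl cyclase, was at 48.0, 41.3 and 46.0 CPM in mCherry and 286, 347 and 315 in cfos 1 to 3, at a log2 fold change of 2.76 with an SE of 0.49 (adjusted p = 0.166). The values were tight within each group. It overlaps Rsph14 on the opposite strand. Lrba, a vesicle-trafficking gene, was at 13.9 to 18.9 CPM in mCherry and 146, 117 and 125 in cfos 1 to 3. Lpin2, a phosphatidate phosphatase gene, was at 18.1 to 28.6 CPM in mCherry and 121, 362 and 351 in cfos.

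On the lower side, 5 of the 10 genes were at 0 in cfos 1, cfos 2 and cfos 3. Ermap, a membrane protein gene known from erythroid cells (chromosome 4, 119175457 to 119190011, minus strand), had the smallest p of the named genes. It was at 180, 150.0 and 161 CPM in mCherry, and at least 205-fold lower in cfos against 3 counts over the group. Gramd2 was at 107 to 135 CPM in mCherry, Smpdl3b, for a lipid phosphodiesterase, at 91.1 to 179, Scarf1, for a scavenger receptor, at 49.1 to 190, and Krt2, an epidermal keratin gene, at 72.0 to 106. The bounds were at least 147-fold, 181-fold, 144-fold and 116-fold lower. Without cfos 2 and 3, which hold most of the depth, the bounds were 39.0-fold for Ermap and 28.1-fold, 34.5-fold, 27.5-fold and 22.0-fold for the others in the same order. Known sites of expression of several of these genes are outside neurons.

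The remaining genes on the lower side had some counts in cfos. Camkk1, an upstream kinase of the calmodulin-dependent kinases, was at 113, 142 and 136 CPM in mCherry and 1.40, 3.01 and 1.98 in cfos 1 to 3, at a log2 fold change of −5.87 with an SE of 1.00 (adjusted p = 0.166). Tmeff2, for a brain transmembrane protein with follistatin domains, was at 160, 222 and 282 CPM in mCherry and 19.6, 8.42 and 11.9 in cfos. Prss43, a testis serine protease gene, was at 172 to 235 CPM in mCherry against 10.2 to 18.2, and Samd7, a photoreceptor gene, at 93.9 to 160 against 0 to 1.65. AY761185, which belongs to a cluster of similar genes among which reads may be divided, was at 48.0 to 175 CPM in mCherry and had 2 counts in cfos 1 and cfos 3. The next counts are over all 16410 genes tested, with named and predicted genes not left out. In all, 83 genes were at 0 in all mCherry libraries with at least 10 counts in both cfos replicates. Another 173 were at 0 in cfos 1 and cfos 3 with at least 10 counts in all mCherry libraries.

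**Figure D3:**
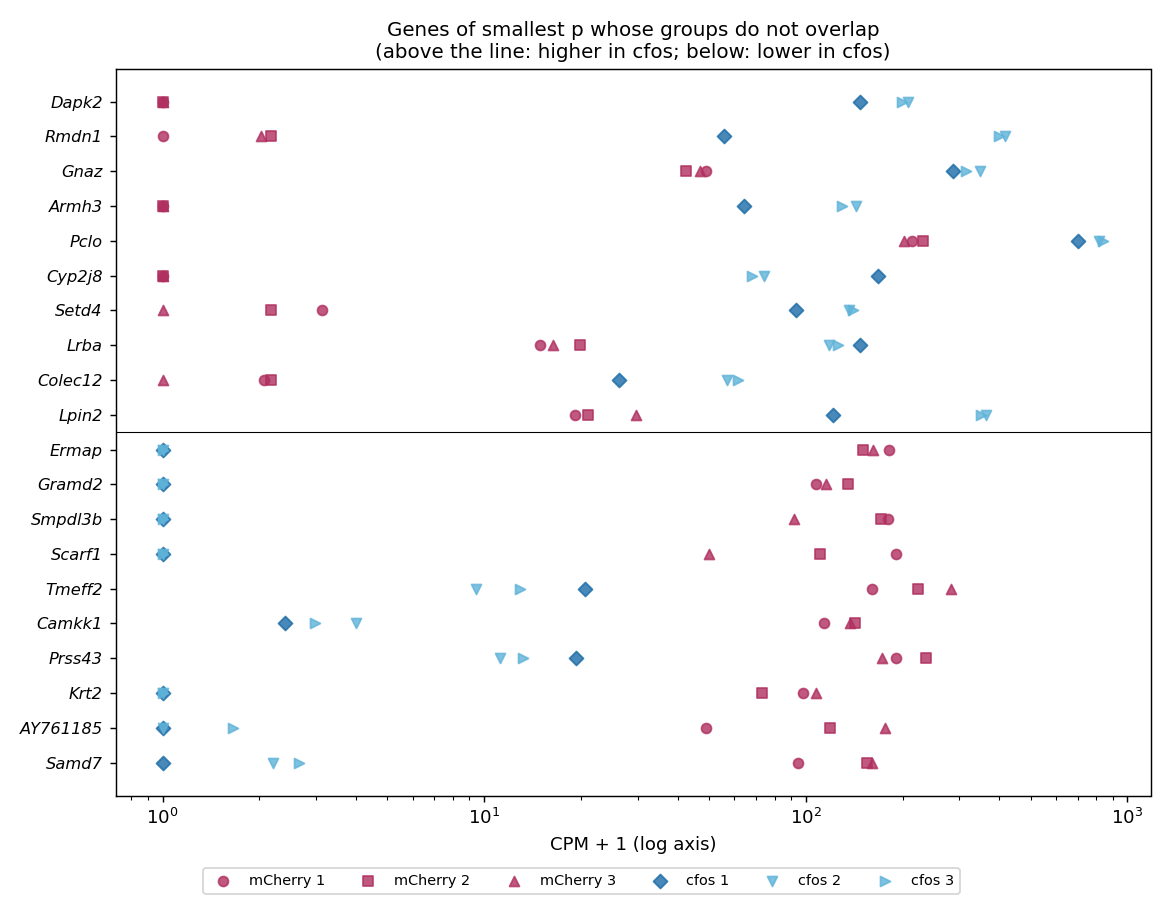
CPM + 1 on a log axis in each library for the 20 genes named by smallest p among protein-coding genes that are not predicted genes. Their cfos replicates both lie above (above the line) or both below (under the line) all mCherry libraries. Dapk2, Armh3 and Cyp2j8 are at 0 in all mCherry libraries, and Ermap, Gramd2, Smpdl3b, Scarf1 and Krt2 are at 0 in all cfos columns.

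**Figure D4:**
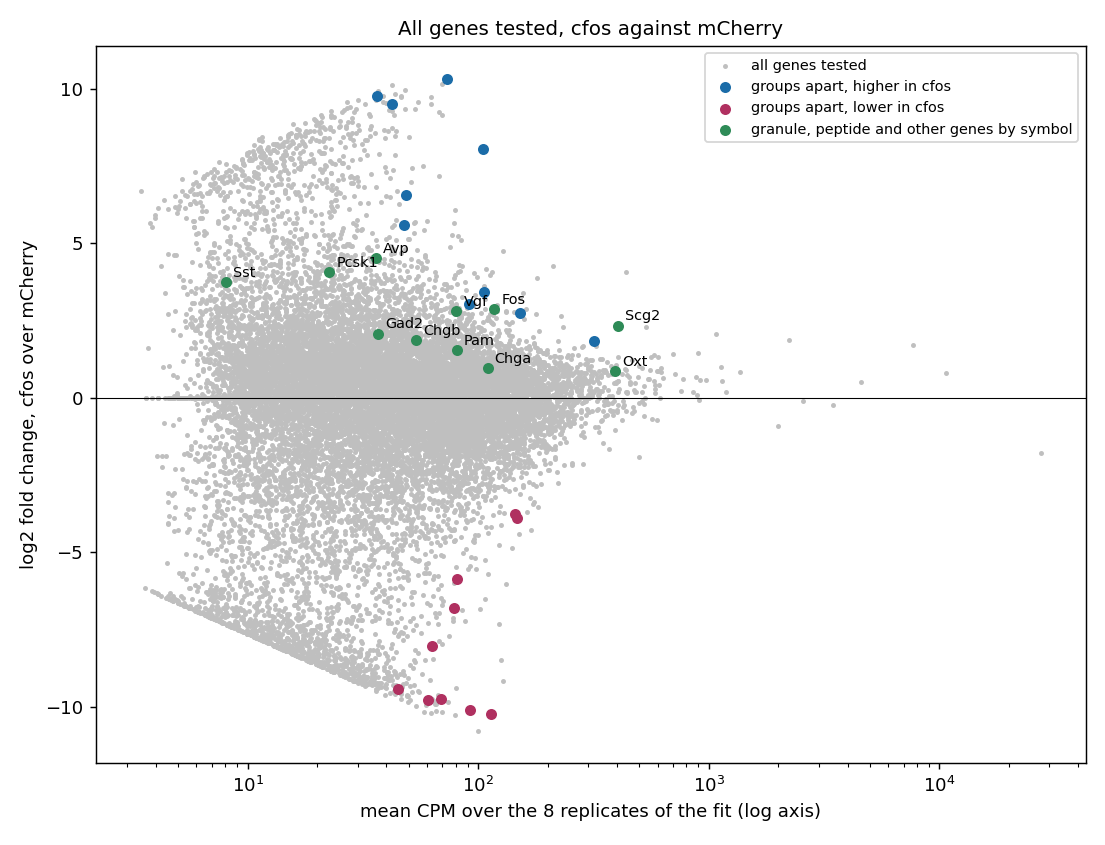
Log2 fold change of cfos over mCherry against mean CPM over the 8 replicates of the model (log axis) for the 16410 genes tested, with the 20 separated genes coloured by direction and granule, peptide and other genes labelled. The genes of largest fold change lie on the bands formed by genes at 0 in 1 group, while Scg2 and Oxt combine a high level with changes of 2.33 and 0.86.

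Glial markers were present in all libraries although the cells are labelled neuron. In bulk libraries fewer cells of a type and less RNA per cell cannot be told apart. The 26 astrocyte markers summed to 2733, 2786 and 3055 CPM in mCherry, 7002 in cfos 1 and 4379 and 4925 in cfos 2 and 3. Both cfos replicates were above mCherry in 13 of 22 tested genes and below in 2, beside 22.3% and 12.2% of protein-coding genes, and the defining marker Gfap was at 0 to 1.18 CPM in mCherry and 7.01 to 22.3 in cfos. Apoe, a lipid carrier gene, was at 173, 42.5 and 47.1 CPM in mCherry, 2837 in cfos 1 and 122 and 154 in the pair, and without it the sum in cfos 1 was 4165. Gja1 and Fgfr3, both astrocyte genes, were lower in both cfos replicates. Gja1 stood at 332, 302 and 296 CPM in mCherry and 114, 180 and 187 in cfos.

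The 23 oligodendrocyte markers summed to 2663, 1873 and 1502 CPM in mCherry, 7221 in cfos 1 and 4952 and 5322 in cfos 2 and 3. In 4 of 17 tested genes both cfos replicates lay above mCherry, a share near the 22.3% of protein-coding genes. Trf was high in cfos 1 alone (194 CPM, against at most 12.8 in every other column of the comparison) and Aspa in the pair alone (143 and 135 CPM, against at most 29.9), so these markers divided the replicates in opposite ways. Of the 6 tested precursor markers, Cspg4, the NG2 proteoglycan gene, was at 2.13, 5.90 and 14.3 CPM in mCherry and 22.4, 122 and 108 in cfos, while Pdgfra was at 0 in cfos 1 and at 150 and 136 CPM in the pair.

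Microglial markers were lowest in cfos 1 by their sum. The 18 genes summed to 422 to 523 CPM in mCherry, 205 in cfos 1, and 556 and 548 in cfos 2 and 3. The median log2 fold change of the 10 tested was −0.60, with 0 apart on the higher side and 3 on the lower (22.3% and 12.2% of protein-coding genes). The defining genes Tmem119 and Tyrobp were at 0 in all 6 columns, and P2ry12 and Aif1 at no more than 4.09 CPM. Selplg was at 30.9, 28.3 and 41.9 CPM in mCherry and 1.40, 4.81 and 8.26 in cfos, and Ctss, a lysosomal protease gene, at 7.47 to 41.9 against 0 to 1.20. Trem2 had 1 count over cfos 1 and cfos 3, but mCherry 3 was also at 0, so the groups touched. Of 14 tested endothelial and mural markers 7 had a fold change above 0 and 7 below, compared with 6 and 3 of 9 fibroblast and meningeal markers and 3 and 2 of 5 ependymal and choroid markers. Ccdc153, a gene of ciliated ependyma, was at 361, 36.6 and 64.5 CPM in mCherry and 0 in every cfos column. The bound was at least 195-fold lower, but 64.3-fold without mCherry 1 and 37.2-fold without cfos 2 and 3. Ttr, the transthyretin gene of the choroid plexus, was at 50.1, 0 and 1.02 CPM in mCherry, 568 in cfos 1, and 4.81 and 6.27 in the pair. Bgn, a fibroblast proteoglycan gene, was at 83.9 to 104 CPM in mCherry, 0 in cfos 1 and 5.42 and 4.95 in the pair. Of 12 blood cell markers 3 were tested, and hemoglobin genes were at no more than 4.21 CPM.

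The pan-neuronal sum and the astrocyte and oligodendrocyte sums were all highest in cfos 1, the library with the smallest share of predicted genes, and their part in the higher level of granule, peptide and activity genes was not tested. In cfos 2 and 3 the pan-neuronal sum was 6816 and 7533 CPM against at most 6618 in mCherry, while the astrocyte and oligodendrocyte sums were well above mCherry and the immediate early sum, at 567 and 619 CPM, was below the 742 to 950 CPM of mCherry.

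**Figure D5:**
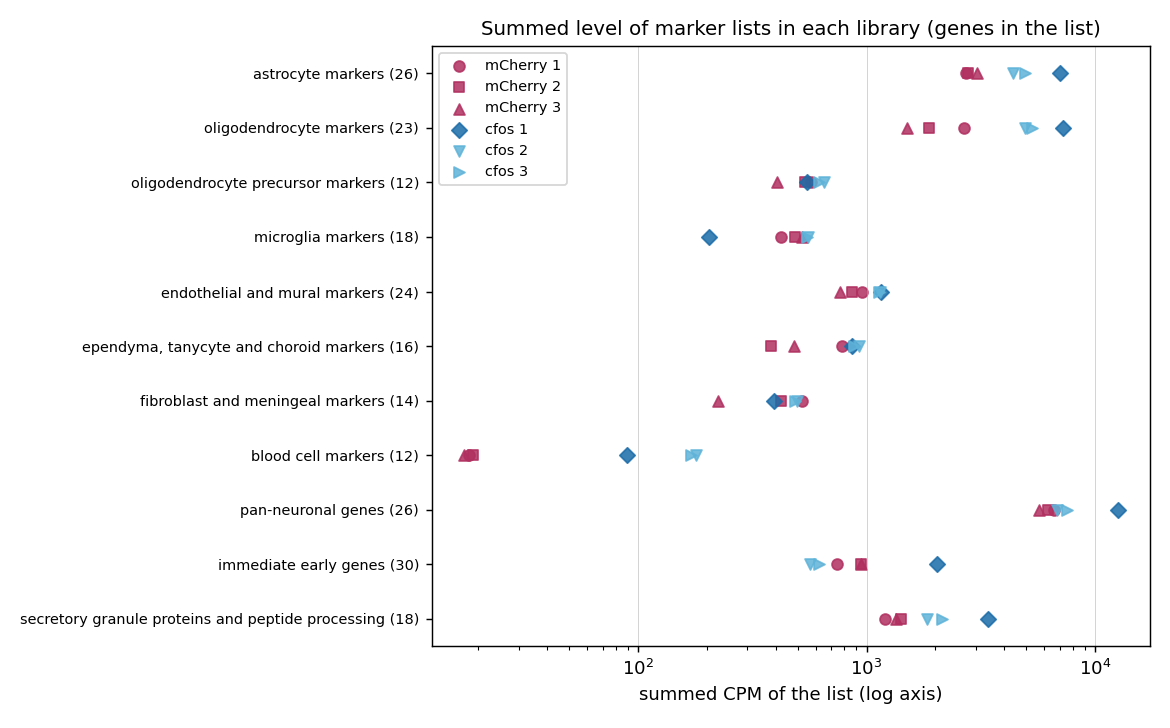
Summed CPM (log axis) of cell type marker lists, with pan-neuronal, immediate early and granule genes for comparison, in each mCherry library (red), cfos 1 (dark diamond) and cfos 2 and 3 (light triangles), and the number of genes in brackets. Astrocyte and oligodendrocyte sums are above mCherry in all cfos columns, the microglial sum is lowest in cfos 1 at 205 CPM, and the immediate early sum is highest in cfos 1 at 2029 CPM and lowest in cfos 2 and 3.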

How the data were processed

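RNA of laser-captured cells of the mouse PVH was measured in 9 Smart-3SEQ libraries (3 mCherry, 3 cfos, 3 overlap). The deposited values are raw counts for each gene, made by the authors with Trim Galore, STAR, UMI-tools and featureCounts on mm10, per the submitters' processing notes. The sources used here do not give versions, annotation, strand setting or the use of molecular identifiers. Of 54838 identifiers, 54809 matched GENCODE M21, which gave coordinates and gene types. All mitochondrially encoded genes were at 0.

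Tests used R 4.3.3 with edgeR 4.0.16: TMM scaling, filterByExpr, 1 robust quasi-likelihood model over 8 replicates of the 3 groups (3 overlap, 3 mCherry, cfos 1 and the rounded mean of cfos 2 and cfos 3), no covariates, the contrast of cfos with mCherry, two-sided, with Benjamini-Hochberg adjustment at 0.05. The model was run on simulated data. Recovery of changed genes was required there only at a smaller spread than that of these data, and is not reported for theirs. The biological coefficient of variation was 0.958. DESeq2 1.42.0 and limma 3.58.1 were alternatives. Standard errors are the log2 fold change over the square root of F. CPM were computed on TMM-scaled library sizes, and log2 ratios of single replicates add 2 CPM. Fold bounds and ratios for genes of 0 to 3 counts in a group use the counts of cfos 1 and cfos 3 and an exact binomial interval (95%), and 3 counts over the group where it is at 0. Since mCherry 2 may hold reads of mCherry 1 and 3, intervals may be too narrow.

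Named genes are 8 PVH and activity genes fixed by symbol, the 10 of smallest p in each direction among protein-coding genes whose groups did not overlap (at least 10 counts in every replicate of the higher group), and the 3 members of smallest p in each list with at least 5 tested members and a median over 0.5 from that of all genes. Up to 3 of the latter stand for each of 17 lists, and some genes under these rules are not reported here. The members, the 30 gene lists and the rules were chosen with earlier results of these data known. Lists are described by counts and medians, with no test.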

Additional observations from a re-analysis of the deposited data

How the results depend on the processing

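Of 25 alternative settings, 18 called 0 genes, as the edgeR model did. The others called 1197 genes with no count filter, 210 with the stricter filter, 1529 with DESeq2, 2163 with limma-voom and sample weights, 247 with all 9 columns as separate samples, 551 with DESeq2 without mCherry 2 and 130 with no filter without mCherry 2. The balance of calls between the 2 directions differed between tools: DESeq2 called 427 higher and 1102 lower, limma-voom 1670 higher and 493 lower. Leaving out any 1 replicate gave 0 to 0 genes. Adding cfos and mCherry alone without mCherry 2, an alternative chosen after seeing the data, gave 0. Among the 18, the fit with cfos 3 in place of the mean is the same as that without cfos 2, and is counted under both names. Most of the 18 left out a library. DESeq2 size factors moved the median of all genes by −0.12. The cause of these differences was not tested.

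Across groups, correlations of the deviations of same-numbered columns were −0.0476 to 0.0621, and those of different-numbered columns −0.0585 to 0.0594. The check cannot decide whether the replicate numbers pair the libraries. The columns cfos 2 and cfos 3 are nested, and mCherry 2 may hold reads of mCherry 1 and 3. With a replicate block, 0 genes were called, both with cfos 3 in place of the mean (1663 at an unadjusted p under 0.05) and with all 9 columns (3086).

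Of 1586 values of named genes under alternatives, 1386 kept their direction and side of the threshold, 189 passed it and 11 turned sign, in 8 genes. The turn of Slc17a6 with cfos 3 in place of the mean is counted under both names of that fit. Without cfos 2 and 3, Aspa was at −0.42, Hdc −0.37 and Pdgfra −6.69. Without cfos 1, Crh was at −0.15, Trf −1.59 and Ttr −1.47. With limma-voom Meg3 was at −0.030 and Slc17a6 at 0.25, and Slc17a6 was at 0.014 with cfos 3 in place of the mean and 0.39 without mCherry 1. With any 1 column left out, the ranges were −0.15 to 4.45 (Crh), −0.45 to 0.39 (Slc17a6), −1.59 to 5.74 (Trf) and −1.47 to 4.06 (Ttr). Of 580 list medians, 492 moved by less than the spread between mCherry libraries and 40 lay on the other side of 0, 14 of them with a cfos replicate left out. Depth limits genes near the floor of 3 counts, above all in cfos 1.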

Other observations

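A few other receptor and peptide genes, chosen after their values were seen, also differed between the groups in these libraries, and 0 of them passed the edgeR test. Trpv2, a cation channel gene, was at 33.1, 18.9 and 31.7 CPM in mCherry and 70.1, 253 and 253 CPM in cfos 1 to 3 (log2 fold change 2.53, SE 0.76, adjusted p = 0.235). Drd1, the D1 dopamine receptor gene, was at 6.40, 9.45 and 10.2 CPM in mCherry and 36.5, 114 and 109 CPM in cfos (adjusted p = 0.257). Tac2, a tachykinin gene listed with neighbouring nuclei, was at 7.47, 4.72 and 7.16 CPM in mCherry, 126 CPM in cfos 1 and 24.7 and 26.1 CPM in cfos 2 and 3. Vip, of the PVH peptide list, was too low to be tested, at 0 in all mCherry libraries and 12.6, 10.2 and 13.2 CPM in cfos 1 to 3.

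Some genes were high in the nested pair alone. Cd79a, a B cell gene, was at 0 in mCherry, 2.81 CPM in cfos 1 and 168 and 160 CPM in cfos 2 and 3. Trpm8, the cold receptor gene, was at 0 in mCherry and cfos 1 but reached 57.2 and 53.2 CPM in the nested columns. Pmch, the gene of melanin-concentrating hormone of the lateral hypothalamus, was at 0 in the same 4 columns and at 40.9 and 36.7 CPM in the pair. Each of these rests on 1 replicate of cfos.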
